A study of Mus musculus with 17 samples.

Results

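The genes described here carry glucose to lactate: the glucose transporter Slc2a1, the enzymes Hk2, Aldoa, Tpi1, Gapdh, Pgk1, Eno1, Pkm and Ldha, and the lactate exporter Slc16a3. These 10 members were chosen by symbol, and 9 of them, all except Eno1, had a row among the 10207 rows with a gene symbol. After a filter on low counts 8 of the 9 were tested, Pgk1 being too low, within a fit of 7518 genes. Expression was measured in sorted myeloid cells of female BALB/c mice with 3'-end mRNA libraries. The mice with a tumor had been given cells of the mammary carcinoma line 4T1-luc, which express luciferase, in the mammary fat pad. Tumor-associated macrophages (TAM, 3 libraries) were CD11b+ Gr1- F4/80+ cells from such tumors, released with collagenase A. Marrow cells of tumor-bearing mice (BMDM_T, 4 libraries) and of healthy mice (BMDM_H, 4 libraries) were CD11b+ Gr1+ F4/80low cells flushed from the leg bones. The age label is 8 weeks for TAM and BMDM_T and 12 weeks for BMDM_H, so age and tumor cannot be told apart in BMDM_T against BMDM_H. TAM and marrow cells differ in tissue, sort gate and handling at once.

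Glycolysis splits glucose into pyruvate in the cytosol and yields ATP without oxygen. Glucose enters through a facilitative transporter, is trapped as glucose-6-phosphate by a hexokinase, and is cleaved and oxidized by the later enzymes; lactate dehydrogenase then turns pyruvate into lactate, which leaves with a proton through a monocarboxylate transporter. Neutrophils depend on this route for most of their ATP, macrophages turn to it on inflammatory activation, and hypoxia-inducible factors and Myc are textbook activators of many of its genes.

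Total counts were 387940 to 1286844 in BMDM_H, 931278 to 1218977 in BMDM_T and 1748338 to 3747929 in TAM, so counting error was smallest in TAM. Beside the labels, macrophage markers summed to 58590 to 72680 CPM (counts per 1000000 counts of the tested genes) in TAM and to 1942 to 3547 CPM in marrow, with 8 of 9 listed markers measured and none at 0. Neutrophil markers (11 of 12 measured) summed to 138100 to 212000 CPM in marrow against 353 to 582 CPM in TAM. The marrow samples are labelled as monocytes, but monocyte markers (7 of 7) summed to 1405 to 3800 CPM there, far below neutrophil markers. The lists hold different genes, so their sums do not give shares of cells. In such bulk samples, fewer cells of a type and less RNA per cell cannot be told apart.

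Because the members share a pathway and several were higher together, the promoters of the genes on which the results turn are shown first, as the 250 bases before the RefSeq start (build GRCm38.p6, gene strand, 5′ to 3′). Capitals mark the core of the hypoxia response element, ACGTG or GCGTG on either strand. Slc2a1 (chr4:119108495-119108744, + strand) held 2 cores, Slc16a3 (chr11:120948817-120949066, + strand) 2 and Ldha (chr7:46845554-46845803, + strand) 5, where a palindrome CACGTG counts as 2. Hk2 (chr6:82774455-82774704, - strand) held 2 cores as well, and Tpi1 (chr6:124814159-124814408, - strand) held none. Ldha has a further RefSeq start, whose sequence is not shown. By the gene models given below, the stretches of Slc16a3 and Ldha lie inside the gene. Those of Tpi1 and Slc2a1 overlap it in part, and that of Hk2 lies before it.
Slc2a1: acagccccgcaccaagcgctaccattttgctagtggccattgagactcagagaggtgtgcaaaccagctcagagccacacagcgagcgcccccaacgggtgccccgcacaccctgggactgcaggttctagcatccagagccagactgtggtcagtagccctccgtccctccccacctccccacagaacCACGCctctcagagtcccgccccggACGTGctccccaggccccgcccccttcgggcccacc
Slc16a3: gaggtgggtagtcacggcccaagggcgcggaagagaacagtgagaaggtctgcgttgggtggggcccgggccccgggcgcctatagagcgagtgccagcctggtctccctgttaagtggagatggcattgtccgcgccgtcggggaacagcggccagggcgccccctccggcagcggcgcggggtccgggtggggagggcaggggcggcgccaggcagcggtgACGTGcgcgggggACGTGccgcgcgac
Ldha: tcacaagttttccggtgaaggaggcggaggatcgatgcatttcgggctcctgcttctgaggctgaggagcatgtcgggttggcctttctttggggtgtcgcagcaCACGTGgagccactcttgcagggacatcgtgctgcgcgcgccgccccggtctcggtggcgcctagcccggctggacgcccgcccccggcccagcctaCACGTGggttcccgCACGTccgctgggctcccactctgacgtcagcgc
Hk2: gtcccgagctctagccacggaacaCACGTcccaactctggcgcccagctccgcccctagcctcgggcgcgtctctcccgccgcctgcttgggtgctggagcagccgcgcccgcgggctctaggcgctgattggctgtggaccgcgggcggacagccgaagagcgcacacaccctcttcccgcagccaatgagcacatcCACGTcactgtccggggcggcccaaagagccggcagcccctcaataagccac
Tpi1: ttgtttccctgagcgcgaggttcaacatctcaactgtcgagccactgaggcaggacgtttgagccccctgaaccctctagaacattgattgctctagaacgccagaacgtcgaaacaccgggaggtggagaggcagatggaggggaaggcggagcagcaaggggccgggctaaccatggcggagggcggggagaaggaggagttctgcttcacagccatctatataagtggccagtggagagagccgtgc

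RefSeq windows of 300 bases (250 before and 50 after the start) were found for all 10 members, 16 windows in all, some genes having several starts. A hypoxia core on either strand was present in 13 of the 16 windows and in at least 1 window of 9 members, against 43.8% of all 32851 windows. The member windows were also rich in CpG, with a median of 23.5 CpG against 7 over all windows, and of the 6563 windows with at least as many CpG 75% held a core. The GC box GGGCGG was found in 11 of 16 member windows against 35.7% of all, the TATA box TATAAA in 1 of 16 against 13.6%, and the E-box CACGTG, which contains a core, in 1 of 16 against 7.15%. The window with an E-box was 1 of 2 of Ldha, held 2 E-boxes and with 7 cores had the most among the members. The other Ldha window held 2 cores and 0 E-boxes. The windows without a core were that of Tpi1, 1 of 3 of Aldoa and 1 of 2 of Pkm. A pair of Aldoa windows and a pair of Eno1 windows overlap, so the windows are not independent. A match is a stretch of letters and not a site shown to be bound.

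By gene model (GENCODE M21, mm10), the members lie on chromosomes 4, 6, 7, 9, 11 and X. Hk2 (chr6:82725025-82774454), Tpi1 (chr6:124810586-124814296) and Gapdh (chr6:125161715-125166467) share chromosome 6, while Aldoa (chr7:126795234-126800751) and Ldha (chr7:46841475-46855627) are far apart on chromosome 7. Slc2a1 is at chr4:119108711-119137983, Pkm at chr9:59656368-59679375, Slc16a3 at chr11:120948480-120960868 and Pgk1 at chrX:106187100-106203699. Aldoa overlaps Fam57b, Tpi1 overlaps Spsb2, Gapdh overlaps Iffo1, and Slc2a1 and Hk2 overlap predicted antisense genes, each on the opposite strand. The strand setting of the counting is not given in the sources used here, so reads of such partners cannot be told apart. Slc2a1 also overlaps the microRNA gene Mir1957a and Pkm the predicted gene Gm49759 on the same strand, whose reads no strand setting would separate.

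Together the members took 3466 CPM ± 171 (SD, n = 4) in BMDM_H, 5228 ± 325 (SD, n = 4) in BMDM_T and 6154 ± 777 (SD, n = 3) in TAM. The ranges, 3240 to 3650, 4910 to 5628 and 5692 to 7051 CPM, did not overlap. Without Gapdh and Pgk1, TAM replicate 3 was at 5619 and BMDM_T replicate 3 at 5620 CPM, so that BMDM_T and TAM overlapped, while BMDM_H stayed apart at 3230 to 3632 CPM. A sum of this kind is carried by the abundant Pkm, Ldha, Aldoa and Slc16a3. The plot of CPM by library shows the 9 members one by one.

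**Figure D1:**
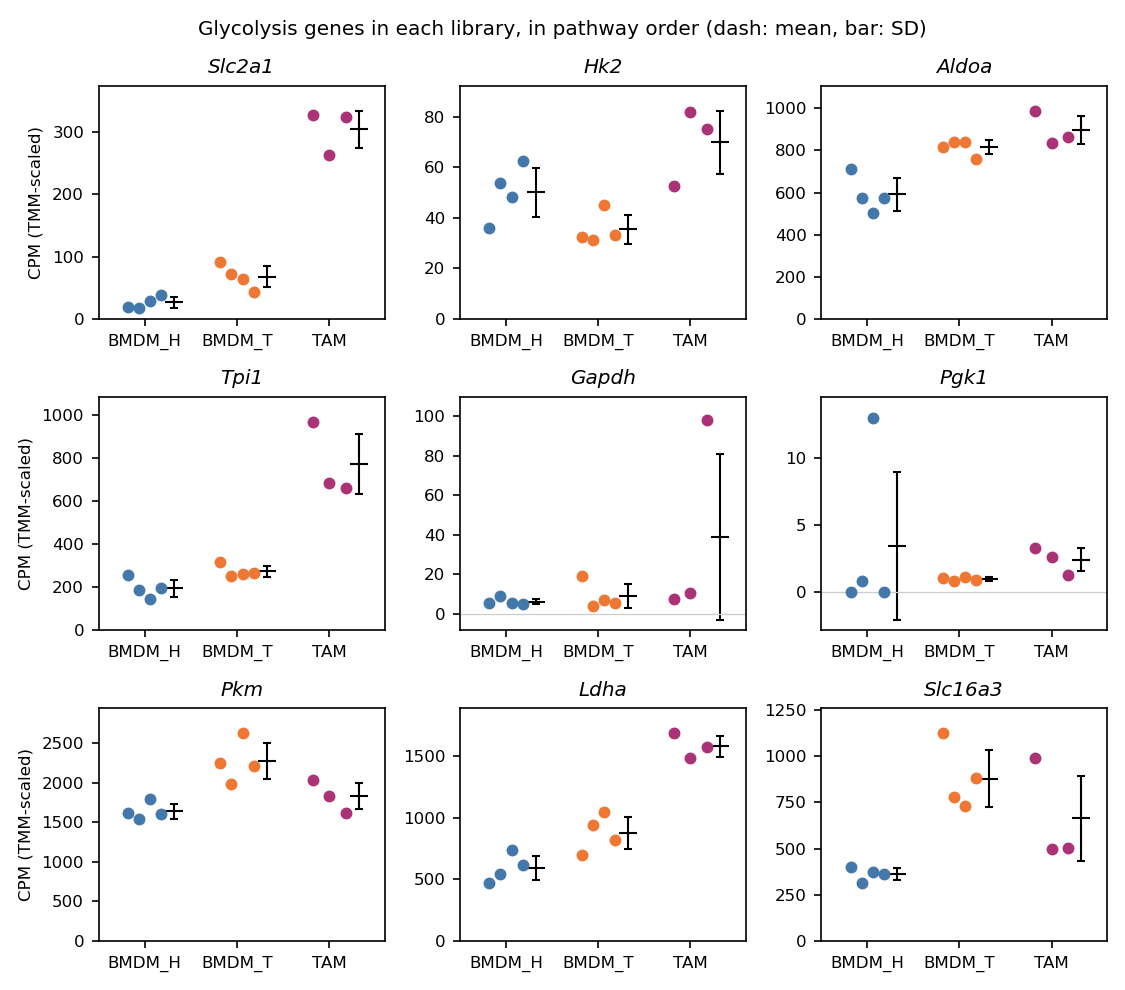
Each point is 1 library; the vertical axis is CPM (scaled with TMM factors) on a linear scale of its own for each gene, and the dash and bar give the group mean and SD. Slc2a1, Tpi1 and Ldha have all 3 TAM points above every marrow point, while the raised means of Gapdh in TAM and Pgk1 in BMDM_H each rest on 1 library.

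BMDM_T against BMDM_H asks how marrow cells of this gate differ between mice with and without a tumor. Transcripts of the 2 transporters among the members were higher in BMDM_T: Slc2a1 2.83-fold and Slc16a3 2.42-fold. Slc2a1 was the lesser glucose carrier in marrow, at 13.9% of the counts of Slc2a1 and Slc2a3 in BMDM_T. The carrier Slc2a3 itself had a log2 fold change of 0.58 and was not called in the main fit (edgeR adjusted p = 0.076). The enzymes between the 2 transporters did not pass the test over all genes in the main fit, which left out the replicate number. Aldoa and Pkm were still higher in every BMDM_T library than in any BMDM_H library. In counts, 2 of 8 members were called higher and 0 lower with edgeR's quasi-likelihood test (Benjamini-Hochberg adjusted p under 0.05), beside 2.82% of the 7518 genes called higher and 4.82% called in either direction. The members' median log2 fold change was 0.47, and that of all tested genes -0.01. In the same test 6 members had an unadjusted p under 0.05, beside 17.6% of all genes, and 4 were higher without overlap between the groups, beside 5.99% of all genes (5.2% were lower without overlap). With the replicate number as a block 4 of 8 members were called in the 11 libraries (468 genes called in all, 6.23%), all of them higher. In a fit of the marrow libraries alone with that block, added after seeing the data, 6 of 7 were called (662 genes, 10.3%), all of them higher. Aldoa, Tpi1, Pkm and Ldha were among those 6. DESeq2, which gave Gapdh no adjusted p, called 5 members, beside 391 genes in all (5.2%). Over all genes 212 were higher and 150 lower, and with total counts as the only scaling 155 higher and 218 lower; that scaling moved the median of all genes to -0.12 and left the calls on the members at 2 higher.

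TAM against BMDM_T compares macrophages inside the tumor with marrow cells of tumor-bearing mice. Slc2a1 was 4.50-fold, Tpi1 2.81-fold, Hk2 1.99-fold and Ldha 1.80-fold higher in TAM, and Aldoa, Pkm and Slc16a3 did not pass the test. In counts, 5 of 8 members were called higher and 0 lower, beside 58.9% of all genes called, 30.1% higher and 28.7% lower. The fifth, Gapdh, rests on 1 library, and 4 members were called without TAM replicate 3. The median log2 fold change of the members was 0.92 against 0.03 over all genes, and 4 members were higher without overlap, beside 30.4% of all genes (27.7% were lower without overlap). DESeq2 called 4 members higher and Pkm lower (-0.31, adjusted p = 0.0464), beside 55.3% of all genes called in either direction.

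TAM against BMDM_H is a contrast that shares its TAM libraries with the comparison before and its BMDM_H libraries with the first. Slc2a1 was 12.7-fold, Tpi1 3.91-fold, Ldha 2.68-fold and Slc16a3 1.82-fold higher in TAM. All members tested except Pkm were called, 7 of 8 higher and 0 lower, beside 56.3% of all genes called, 28.0% higher and 28.3% lower. Without TAM replicate 3, or without the 2 BMDM_H libraries of lowest total (replicates 3 and 4), 5 were called. The members' median was 1.14 against 0.02 over all genes, and 5 of them were higher without overlap, beside 27.5% of all genes (26.4% were lower without overlap).

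**Figure D2:**
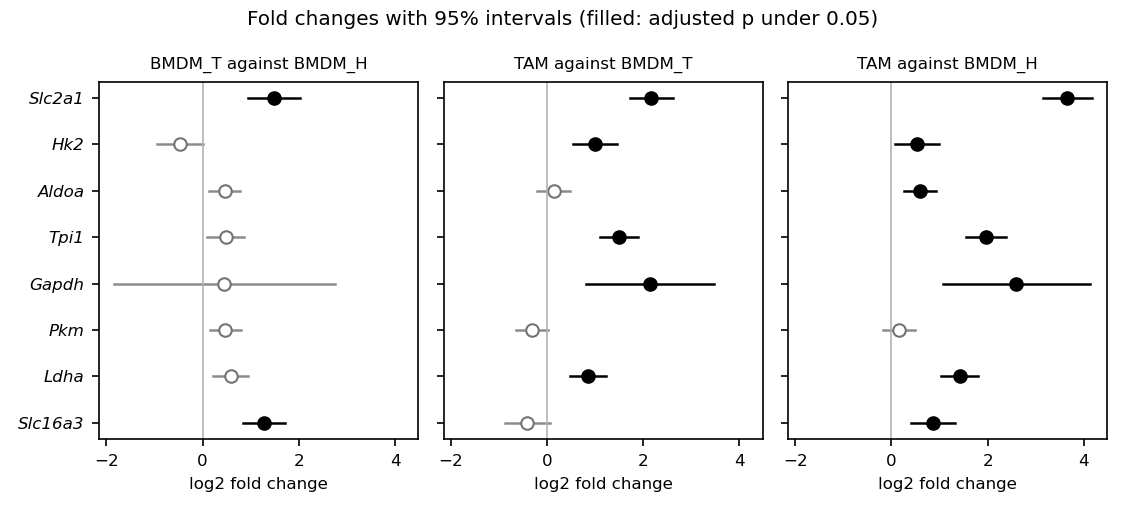
Log2 fold changes (horizontal axis) of the 8 tested members with 95% intervals, in pathway order from top to bottom. Values are from the main fit, which left out the replicate number, and filled points had an adjusted p under 0.05. In BMDM_T against BMDM_H the filled points are the 2 transporters, Slc2a1 at 1.5 and Slc16a3 at 1.27, while in TAM against BMDM_T Slc16a3 lies at -0.41 and is open.

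Slc2a1 encodes GLUT1, the basal glucose carrier of many tissues. In BMDM_H its levels were 19.9, 17.7, 29.8 and 39.0 CPM in replicates 1 to 4, and in BMDM_T 91.5, 72.3, 63.5 and 44.2 CPM. The lowest BMDM_T library was above the highest BMDM_H library, by a narrow margin. TAM libraries had 327, 263 and 324 CPM, far above all marrow libraries. The log2 fold changes were 1.5 ± 0.26 (SE; edgeR adjusted p = 0.00134) for BMDM_T against BMDM_H, 2.17 ± 0.21 (adjusted p = 2.62e-08) for TAM against BMDM_T and 3.67 ± 0.25 (adjusted p = 1.47e-10) for TAM against BMDM_H. All 21 alternative settings of the first comparison called it, with adjusted p from 1.33e-05 to 0.012. Counts behind these values were low in BMDM_H, 15 to 25 per library, against 49 to 86 in BMDM_T and 495 to 1252 in TAM.

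Slc2a3, the high-affinity neuronal and leukocyte carrier GLUT3, moved the other way between marrow and tumor. It had 277 CPM ± 48.5 (SD, n = 4) in BMDM_H, 417 ± 103 (n = 4) in BMDM_T and 5.22 ± 1.79 (n = 3) in TAM, and fell by 6.28 on the log2 scale (SE 0.29; edgeR adjusted p = 3.5e-13) from BMDM_T to TAM. Of the counts of Slc2a1 and Slc2a3 together, Slc2a1 made up 9.03% ± 4.28 (SD, n = 4) in BMDM_H, 13.9% ± 1.67 (n = 4) in BMDM_T and 98.3% ± 0.778 (n = 3) in TAM. Marrow libraries ranged from 5.96 to 16% and TAM libraries from 97.4 to 99.0%. Reads of such libraries come from the transcript end, so counts were not divided by length, and these shares are shares of counts. A further carrier, Slc2a6, fell in TAM by 1.87 against BMDM_T (adjusted p = 1.62e-06).

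Hk2, the inducible mitochondria-bound hexokinase, differed from the other members. BMDM_H libraries had 35.8, 53.9, 48.4 and 62.5 CPM and BMDM_T libraries 32.3, 31.1, 45.0 and 33.4 CPM, with overlapping ranges. It was the only tested member whose estimate was below 0 in BMDM_T against BMDM_H (log2 fold change -0.47 ± 0.23 SE, 95% interval -0.94 to 0.01, edgeR adjusted p = 0.294). In counts thinned to the lowest library total it was called lower (-1.13, adjusted p = 0.0283). TAM libraries had 52.8, 81.7 and 75.2 CPM, all above BMDM_T but not above all of BMDM_H. The rise over BMDM_T was 0.99 ± 0.22 (adjusted p = 0.00055). The call against BMDM_H (0.53 ± 0.22, adjusted p = 0.0446) was lost in 12 of 20 alternatives, with adjusted p up to 0.232, among them those without BMDM_H replicate 1 (0.36, adjusted p = 0.207), TAM replicate 2 (0.41, 0.178) and TAM replicate 3 (0.47, 0.119).

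The hexokinase of marrow was chiefly Hk3, a myeloid form. Hk3 took 78.2% ± 2.15 (SD, n = 4) of the counts of Hk1, Hk2 and Hk3 in BMDM_H, 79.4% ± 1.46 (n = 4) in BMDM_T and 54.1% ± 0.423 (n = 3) in TAM. Hk2 took 6.86% ± 1.54, 4.35% ± 0.902 and 21.2% ± 2.87, and Hk1, the housekeeping form, 14.9% ± 0.820, 16.3% ± 1.61 and 24.7% ± 3.29. Hk3 fell in TAM by 1.88 (SE 0.17; edgeR adjusted p = 1.13e-08) and Hk1 by 0.73 (SE 0.16; adjusted p = 0.000472) against BMDM_T, while Hk2 rose. The stacked shares show the glucose carriers and the hexokinases library by library.

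**Figure D3:**
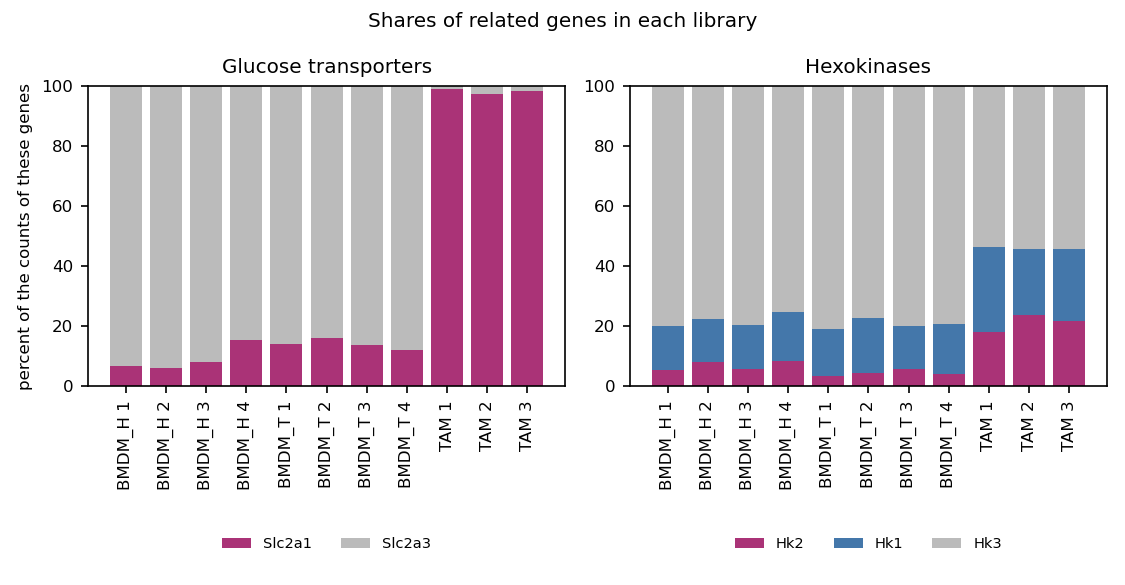
Bars are single libraries; the vertical axis is each gene's percent of the counts of Slc2a1 and Slc2a3 (left) or of Hk1, Hk2 and Hk3 (right). Slc2a1 fills 97.4 to 99.0% of the TAM bars and at most 16% of the marrow bars, and Hk3 is the largest part of every hexokinase bar.

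Aldoa, the aldolase that splits fructose-1,6-bisphosphate into triose phosphates, was at 714, 574, 504 and 573 CPM in BMDM_H, 814, 841, 842 and 760 CPM in BMDM_T and 987, 834 and 865 CPM in TAM. Every BMDM_T and TAM library exceeded every BMDM_H library, and BMDM_T and TAM overlapped. For BMDM_T against BMDM_H the difference was 0.46 ± 0.15 (SE; edgeR adjusted p = 0.0905) without the replicate number, and 0.45 (adjusted p = 0.0274) with the number as a block over the marrow libraries. TAM exceeded BMDM_H by 0.60 ± 0.16 (adjusted p = 0.00374; 0.46, adjusted p = 0.0555, without the 2 lowest-total BMDM_H libraries) and differed from BMDM_T by 0.14 ± 0.16 (adjusted p = 0.474; 95% interval -0.20 to 0.47).

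Tpi1, which interconverts the triose phosphates, stood out in TAM. Its levels were 969, 684 and 662 CPM there, 318, 251, 262 and 267 CPM in BMDM_T and 255, 186, 145 and 195 CPM in BMDM_H. All TAM libraries exceeded all marrow libraries, while the marrow groups overlapped between BMDM_H replicate 1 and BMDM_T replicate 2. TAM rose by 1.49 ± 0.19 (SE; edgeR adjusted p = 1.15e-06) over BMDM_T and 1.97 ± 0.19 (adjusted p = 4e-08) over BMDM_H. In marrow the difference of 0.48 ± 0.19 (adjusted p = 0.164) became a call with the replicate number as a block (0.50, adjusted p = 0.0477, in 11 libraries and 0.47, adjusted p = 0.0229, in the marrow libraries alone).

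Gapdh and Pgk1, which oxidize glyceraldehyde-3-phosphate and make the first ATP of the payoff phase, were nearly absent from the counts. Gapdh had 2 to 20 counts in 10 libraries and 379 counts (98.0 CPM) in TAM replicate 3. Its estimate in TAM against BMDM_T was 2.24 (SE 0.64; edgeR adjusted p = 0.0073) and 0.07 (adjusted p = 0.917) without that library. Against BMDM_H it was 2.62 (SE 0.73; adjusted p = 0.00522) and 0.47 (adjusted p = 0.49) without it. Pgk1 had 0 to 7 counts in each library and was not tested. Of the 50-base stretches in the last 500 bases of the Gapdh transcript, 90.5% also occur exactly in other annotated genes, 135 of 143 of them pseudogenes. That share was 7.32% for Pgk1, 75.2% for Eno1, which has no row, 3.33% for Aldoa and 0 for the other members. How reads with several matches were counted is not given in the sources used here, so the counts of Gapdh and Pgk1 are uncertain, and the part of such reads was not tested.

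Pkm, the pyruvate kinase of leukocytes and tumors, was the most abundant member. BMDM_H libraries had 1616, 1543, 1795 and 1606 CPM, BMDM_T libraries 2252, 1991, 2630 and 2215 CPM, and TAM libraries 2032, 1838 and 1623 CPM. BMDM_T lay above BMDM_H throughout, and TAM overlapped both. The marrow difference was 0.47 ± 0.15 (SE; edgeR adjusted p = 0.0845), and 0.44 (adjusted p = 0.018) with the replicate number as a block over the marrow libraries. TAM differed from BMDM_T by -0.31 ± 0.16 (adjusted p = 0.11) and from BMDM_H by 0.16 ± 0.16 (adjusted p = 0.425; 95% interval -0.18 to 0.50). Counts from the transcript end do not separate the M1 and M2 splice forms of this gene.

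Ldha, the lactate dehydrogenase subunit that favours lactate formation, had 471, 542, 735 and 614 CPM in BMDM_H, 697, 942, 1049 and 817 CPM in BMDM_T and 1685, 1481 and 1568 CPM in TAM. TAM was above all marrow libraries, and the marrow groups met, BMDM_T replicate 1 lying below BMDM_H replicate 3. The rise in TAM was 0.85 ± 0.18 (SE; edgeR adjusted p = 0.000479) over BMDM_T and 1.42 ± 0.18 (adjusted p = 1.6e-06) over BMDM_H. In marrow the difference of 0.57 ± 0.17 (adjusted p = 0.0625) was called with the replicate number as a block (0.58, adjusted p = 0.0307, in 11 libraries; 0.55, adjusted p = 0.00501, in marrow alone). It was also called without BMDM_T replicate 1 (0.68, adjusted p = 0.0366) or BMDM_H replicate 3 (0.70, adjusted p = 0.0399). Ldhb, the subunit of oxidative tissues, was low in all groups, so Ldha made up 94.3% ± 1.71 (SD, n = 4), 96.7% ± 1.10 (n = 4) and 98.2% ± 0.302 (n = 3) of the counts of both in BMDM_H, BMDM_T and TAM.

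Slc16a3 encodes MCT4, the low-affinity monocarboxylate carrier of cells that export lactate. BMDM_H libraries had 402, 315, 376 and 362 CPM and BMDM_T libraries 1125, 777, 729 and 881 CPM, with a wide gap between the groups. The rise was 1.27 ± 0.21 (SE; edgeR adjusted p = 0.000957). TAM replicate 1 had 988 CPM, and replicates 2 and 3 had 498 and 503 CPM, so 1 TAM library lay among BMDM_T and the other 2 between the marrow groups. TAM exceeded BMDM_H by 0.87 ± 0.22 (adjusted p = 0.00277) and differed from BMDM_T by -0.41 ± 0.22 (adjusted p = 0.125). Without TAM replicate 1 the first became 0.46 (adjusted p = 0.0523) and was no longer called. The second, not called in the main fit, became -0.82 (adjusted p = 0.00187) and was called lower. It was also called lower with the replicate number as a block.

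Slc2a1, Ldha and Slc16a3 were also set against Pkm within each library. For each 100 Pkm counts there were 1.62 ± 0.587 (SD, n = 4) Slc2a1 counts in BMDM_H, 3.03 ± 0.979 (n = 4) in BMDM_T and 16.8 ± 2.90 (n = 3) in TAM. Ldha had 35.9 ± 5.07, 38.8 ± 6.82 and 86.7 ± 8.66, so that its ratio was alike in the marrow groups and higher in TAM. Slc16a3 had 22.2 ± 2.01, 39.1 ± 9.10 and 35.6 ± 11.5, so that BMDM_T and TAM overlapped above BMDM_H. These ratios do not depend on library scaling and were not tested.

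Other genes of the pathway were mixed in direction. Of 20 listed, 14 had a row and 9 were tested. In BMDM_T against BMDM_H 0 rose and 1 fell, beside 2.82% and 2.0% of all genes. The 1 that fell was Eno3, the muscle enolase, from 23.5 CPM ± 3.63 (SD, n = 4) to 9.04 ± 1.5 (n = 4, log2 fold change -1.34, edgeR adjusted p = 0.00556). Another 4 had an unadjusted p under 0.05, all higher. With the replicate number as a block in 11 libraries, Slc2a3 (0.59, adjusted p = 0.0345) and Pfkl (0.80, adjusted p = 0.0346) were called higher as well, and in the marrow libraries alone Slc2a6 was added (0.61, adjusted p = 0.0276). Pfkl also passed without BMDM_T replicate 2, BMDM_H replicate 4 or TAM replicate 3 (adjusted p = 0.0488, 0.0367 and 0.0406), and Slc2a3 without BMDM_T replicate 4 (adjusted p = 0.047). In TAM against BMDM_T 3 rose and 5 fell, beside 30.1% and 28.7% of all genes. Pfkl, the liver-type phosphofructokinase that commits sugar to glycolysis, rose from 67.5 CPM ± 12.7 (SD, n = 4) to 207 ± 54.8 (n = 3; 1.62, adjusted p = 2.99e-06). Gpi1, the isomerase between hexokinase and phosphofructokinase, fell from 1340 CPM ± 330 (n = 4) to 650 ± 76.2 (n = 3; -1.04, adjusted p = 0.000109).

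Enolases other than Eno1 were present in TAM. Eno2, the neuronal enolase and a known hypoxia-responsive gene, had 1 count in all 4 BMDM_T libraries, 1 count in all 4 BMDM_H libraries and 285 counts in the 3 TAM libraries, 37.2 to 38.9 CPM. The ratio of TAM to BMDM_T was 154, with an exact 95% counting interval of 27.5 to 6120 that leaves out variation between libraries. Eno3 rose over BMDM_T alone, by 1.46 (edgeR adjusted p = 6.97e-05), to 25.0 CPM ± 3.01 (SD, n = 3). Against BMDM_H, which had 23.5 CPM ± 3.63 (SD, n = 4), it was not called (0.12, edgeR adjusted p = 0.69). Pgam1, the common mutase of the step before enolase, had at most 11.1 CPM in any library and was not tested.

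Regulators of the route were listed as 16 genes, of which 9 were tested. In BMDM_T against BMDM_H 0 of 9 passed with edgeR or limma-voom and 1 with DESeq2, Pfkfb4 (0.53, adjusted p = 0.0407), while 3 had an unadjusted p under 0.05 in edgeR. With the replicate number as a block, Pfkfb4 was called higher in 11 libraries (0.54, adjusted p = 0.038), and Txnip, which restrains glucose uptake, in the marrow libraries alone (0.64, adjusted p = 0.00202). Leaving out BMDM_H replicate 2 also gave a call on Pfkfb4 (adjusted p = 0.0499), and leaving out TAM replicate 1 or 3 one on Txnip (adjusted p = 0.0444 and 0.0482). In TAM against BMDM_T 3 rose and 2 fell, beside 30.1% and 28.7% of all genes. Bsg, the chaperone that carries Slc16a3 to the membrane, rose by 1.11 (edgeR adjusted p = 0.000199), from 234 CPM ± 39.3 (SD, n = 4) to 507 ± 146 (n = 3). Pfkfb3 and Pfkfb4 both make the phosphofructokinase activator fructose-2,6-bisphosphate and moved apart: Pfkfb3 rose by 0.78 (adjusted p = 0.00804; 0.61, 0.0567, without TAM replicate 2), and Pfkfb4 fell by 1.94 (adjusted p = 3.16e-08). Txnip fell by 1.86 (adjusted p = 3.09e-06). Hif1a, the oxygen-regulated transcription factor subunit, had 10.1 to 25.6 CPM in TAM and 5.04 to 11.7 CPM in BMDM_T, with a log2 fold change of 1.23 (adjusted p = 0.01; 0.93, adjusted p = 0.0865, without TAM replicate 3).

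Branches off the route also differed between TAM and marrow. The pentose phosphate pathway, which takes glucose-6-phosphate to NADPH and ribose, had 7 of 8 genes tested. Of these 6 fell and 0 rose in TAM against BMDM_T, beside 28.7% and 30.1% of all genes, with a median of -1.57. G6pdx, its first and limiting enzyme, was at 387 CPM ± 112 (SD, n = 4) in BMDM_H, 741 ± 169 (n = 4) in BMDM_T and 93.5 ± 13.1 (n = 3) in TAM. The fall in TAM was strong (-2.98, edgeR adjusted p = 1.6e-09). In BMDM_T against BMDM_H it was the 1 gene of the pathway that was called, higher by 0.92 (adjusted p = 0.00906; 0.64, adjusted p = 0.142, without the 2 lowest-total BMDM_H libraries). Pgd, the second dehydrogenase, was called as well with the replicate number as a block in the marrow libraries alone (0.46, adjusted p = 0.0197), without BMDM_T replicate 2 (0.60, adjusted p = 0.0435) and by DESeq2. The transaldolase Taldo1 fell in TAM by 1.57 and the ribose-5-phosphate isomerase Rpia by 1.68 (adjusted p = 3.53e-07 and 3.93e-08).

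Mitochondrial fates of pyruvate were less uniform. Of 6 tested genes for pyruvate entry (8 listed), 0 were called in BMDM_T against BMDM_H by edgeR, DESeq2 or limma-voom, and 0 had an unadjusted p under 0.05. In TAM against BMDM_T 1 fell, Mpc2, a subunit of the mitochondrial pyruvate carrier (-0.93, edgeR adjusted p = 0.000617). Pdhb, of the pyruvate dehydrogenase complex, had 0.52 (adjusted p = 0.049), and its call was lost in 15 of 20 alternatives, among them leaving out any 1 TAM or BMDM_H library and BMDM_T replicate 1, 2 or 3. Among 14 tested genes of the citric acid cycle (16 listed) 0 were called in marrow by the main edgeR fit, DESeq2 or limma-voom. In that main fit 2 had an unadjusted p under 0.05. With the replicate number as a block in the marrow libraries alone 1 was called higher, beside 10.3% of all genes called in either direction. In counts thinned to the lowest total 1 was called lower. In TAM against BMDM_T 9 rose and 1 fell, with a median of 0.52, and 6 rose without TAM replicate 2 or without TAM replicate 3. Over all genes 58.9% were called in that comparison, 30.1% higher and 28.7% lower. Succinate dehydrogenase subunits were among the risers, Sdhc by 1.09 (adjusted p = 1.48e-05) and Sdhb by 0.76 (adjusted p = 0.000223). The gene that fell was Mdh2 (-0.66, adjusted p = 0.0129), which was not called without TAM replicate 1, TAM replicate 2 or BMDM_T replicate 2. Of 2 tested genes of glucose synthesis (7 listed), Fbp1 fell by 2.47 (adjusted p = 2.47e-05) and G6pc3 rose by 0.81 (adjusted p = 0.00705) in TAM against BMDM_T.

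**Figure D4:**
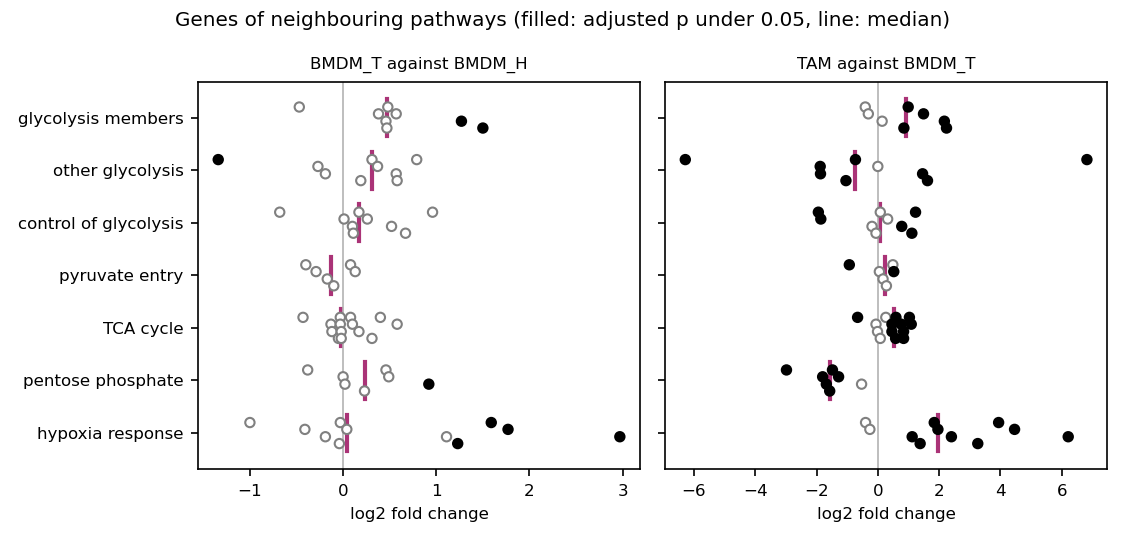
Log2 fold changes (horizontal axis) of the tested genes of each list in BMDM_T against BMDM_H (left) and TAM against BMDM_T (right); filled points had an adjusted p under 0.05 and the line is the list's median. On the right the pentose phosphate points lie below 0, with a median of -1.57, and most hypoxia response points above 0, with a median of 1.96.

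Genes known to respond to hypoxia, none of them a member, were listed as 13, and 11 were tested. In BMDM_T against BMDM_H 4 rose and 0 fell, beside 2.82% and 2.0% of all genes, while the list's median was 0.04. They were Ankrd37 (2.97 ± 0.31 SE, edgeR adjusted p = 6.08e-06), Bnip3, a mitophagy receptor (1.77 ± 0.39, adjusted p = 0.00896), Mif, a cytokine (1.59 ± 0.19, adjusted p = 2.5e-05), and the prolyl hydroxylase Egln3 (1.23 ± 0.30, adjusted p = 0.018). Without the 2 lowest-total BMDM_H libraries Bnip3 (1.72, adjusted p = 0.0625) and Egln3 (adjusted p = 0.119) were not called, and Egln3 was not called without BMDM_T replicate 2, BMDM_H replicate 2 or BMDM_H replicate 3 either (adjusted p = 0.0522, 0.0931 and 0.0551). Bnip3 was also not called in thinned counts (1.65, adjusted p = 0.0939) or with limma-voom (1.62, adjusted p = 0.0631). In TAM against BMDM_T 9 rose and 0 fell, beside 30.1% and 28.7% of all genes. Vegfa, the angiogenic factor, was among the risers, from 27.3 CPM ± 2.83 (SD, n = 4) to 419 ± 50.9 (n = 3). Hilpda, a lipid droplet protein, went from 4.94 CPM ± 3.04 (n = 4) to 385 ± 81.9 (n = 3), a log2 fold change of 6.21 (adjusted p = 5.03e-12).

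Gene patterns most like the members' were sought with the mean of the members' standardized log2 CPM. Over the 11 libraries the 5 highest Pearson correlations among genes outside the set were those of Scarb2, Rnf149 and Bnip3 (r = 0.98 each), Zfp36l1 and Csf2rb2 (0.97 each). The members themselves had r from 0.32 (Hk2) and 0.41 (Pkm) to 0.96 (Slc2a1). Over the 8 marrow libraries Scarb2 led again, with Ggt1, Ppp1r12a and Saa3 (0.97 each) and Wbp1l (0.96), and Hk2 had r = -0.49. Scarb2, a lysosomal membrane protein, had 62.4 CPM ± 4.70 (SD, n = 4) in BMDM_H, 97.7 ± 17.1 (n = 4) in BMDM_T and 167 ± 3.51 (n = 3) in TAM. All points share the libraries and their depth, the groups set most of the spread, and these values are descriptions only.

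Other cell types and handling moved with the groups as well. Epithelial markers, which would mark 4T1 cells (6 of 7 measured), summed to 75.0 to 114 CPM in TAM, 20.5 to 41.6 CPM in BMDM_T and 31.8 to 65.1 CPM in BMDM_H. Krt18 made up most of the TAM sum and rose there by 2.22 against BMDM_T (edgeR adjusted p = 0.000112), while Epcam had 1.94 CPM ± 1.32 (SD, n = 3) in TAM and 2.31 ± 1.90 (n = 4) in BMDM_T. Genes of the stress of tissue dissociation (12 of 12 measured) summed to 8916 to 9281 CPM in TAM and 3548 to 6360 CPM in marrow. Proliferation genes (8 of 10 measured) summed to 323 to 393 CPM in TAM and 778 to 1075 CPM in marrow. Endothelial markers (3 of 5) summed to 61.0 to 92.8 CPM in TAM and 7.81 to 36.1 CPM in marrow. In marrow, azurophil granule genes of precursors (7 of 7) summed to 7657 to 10290 CPM in BMDM_T and 2134 to 3128 CPM in BMDM_H, and erythroid genes (5 of 10) to 6.31 to 20.2 CPM and 51.7 to 260 CPM. Monocyte markers summed to 1405 to 2046 CPM in BMDM_T and 2176 to 3800 CPM in BMDM_H, 5 of 7 being called lower in BMDM_T and 0 higher. Of 8 macrophage markers 4 were called lower and 1 higher, and of 11 neutrophil markers 3 higher and 0 lower. Over all genes 2.0% were lower and 2.82% higher. The part of these differences in the results for the members was not tested.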

How the data were processed

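RNA of 11 libraries (3 TAM, 4 BMDM_T and 4 BMDM_H) was analysed. The values deposited by the authors are raw counts in a table of 24421 rows, 10207 of them with a gene symbol. The submitters' processing notes name the build mm10 and the tools HTSeq, bcl2fastq and STAR 2.4.2a. The sources used here do not give the annotation, the strand setting, the collapse of molecular identifiers or the handling of reads with several matches. Another 6 libraries, marked batch 2, were not used, since their counts do not follow the order of the symbols (Spearman correlations with batch 1 libraries from -0.02 to 0.0, against 0.73 to 0.97 within batch 1).

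All 11 libraries entered 1 fit with edgeR 4.0.16 in R 4.3.3 (filterByExpr, TMM factors, glmQLFit and glmQLFTest, group as the only term). Benjamini-Hochberg adjusted p-values over the 7518 genes tested were called under 0.05. CPM is a count per 1000000 of the TMM-scaled total of those genes. The standard error (SE) is the unshrunken log2 fold change over the square root of F, and intervals are at 95%. A floor of 3 counts per group, for counting error only, was 0.413 to 0.893 CPM. Total counts ran from 387940 to 3747929. Replicates differed by more than sampling noise (chi-square per degree of freedom 2.67 to 14.62). Whether replicates came from separate mice is not in the labels, and p-values therefore cover only the spread among these libraries, which could be technical.

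Deviations from the group means, compared across genes between BMDM_T and BMDM_H libraries with the same number in the labels, correlated at r = 0.21, 0.22, 0.14 and 0.11. No such comparison was made between libraries of different number. Each of these r values exceeds 0.1, and the numbers were taken as pairs, although nothing in the labels tells what they share. For TAM with either marrow group r was -0.06 to 0.09, and they were not. The number was therefore a block in 2 alternatives, the one with marrow libraries alone having been added after seeing the data. The main fit left the number out, so its calls in BMDM_T against BMDM_H do not use this pairing. Other alternatives were RLE factors, total counts, no filter, 2 groups only, thinning to the lowest total, leaving out libraries, DESeq2 1.42.0 and limma-voom (limma 3.58.1). The procedure was tested on simulated data.

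The members and the gene lists were chosen with earlier results of these data known. All members are named, and of each other list up to 4 genes with the smallest p among those called in a comparison; Gpi1, Hk1, Ldhb, Mdh2, Pgam1, Pgd in marrow, Slc2a3, Slc2a6, Pfkl, Pfkfb4 and Txnip in marrow, and Epcam fall outside that rule and were named after their values were seen. Gene models are from GENCODE M21 and promoters from RefSeq (GRCm38.p6).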

Additional observations from a re-analysis of the deposited data

Results flagged for a closer look

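Single values were looked for that stood apart from the other 3 libraries of a marrow group, by the gap to the nearest other value over the group's range (Dixon's test at the 95% level). Of 142 groups of 4 values 12 met this, and chance gives about 1 in 20 for independent normal values. The groups here include counts near 0 and sums and shares of the same genes, so that rate is only a rough guide. A single count beside values of 0, as for Eno2, always meets the rule. Groups of 3, as in TAM, were not tested.

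Among the members, Hk2 was highest in BMDM_T replicate 3 with 45.0 CPM (next 33.4), and without regard to that library the BMDM_T values lay between 31.1 and 33.4 CPM. Gapdh was highest in BMDM_H replicate 2 with 8.85 CPM (next 5.58, 2 to 11 counts per library), and Pgk1 in BMDM_H replicate 3 with 13.0 CPM (next 0.804, 7 counts against 0 to 1). The Hk1 share of hexokinase counts was highest in BMDM_H replicate 4 with 16.1% (next 14.6%).

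Among neighbouring pathways, Pgd was lowest in BMDM_T replicate 2 with 1330 CPM (next 1854), Fh1 highest in BMDM_H replicate 2 with 57.1 CPM (next 31.6) and G6pc3 highest in BMDM_T replicate 4 with 36.1 CPM (next 21.5). Eno2 was counted once in BMDM_H replicate 1 (0.796 CPM) and once in BMDM_T replicate 4 (0.902 CPM), with 0 in the other libraries of those groups. The summed pyruvate entry genes were lowest in BMDM_H replicate 4 with 268 CPM (next 368), and the summed hypoxia response genes in BMDM_H replicate 1 with 276 CPM (next 322). Erythroid markers were highest in BMDM_T replicate 2 with 20.2 CPM (next 8.08).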

How the results depend on the processing

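For BMDM_T against BMDM_H, 2 members were called, and 4 with the replicate number as a block in 11 libraries, 6 with that block in the marrow libraries alone and 5 with DESeq2; leaving out 1 library gave 2 to 3. Over all genes 362 were called, 662 with the block in the marrow libraries alone and 179 without the 2 lowest-total BMDM_H libraries, where fewer samples entered; leaving out 1 library gave 238 (without BMDM_H replicate 2) to 409. Gapdh, at 0.38, ran from -0.29 (reversed, without BMDM_T replicate 1, adjusted p = 0.946) to 0.65 when 1 library was left out. In counts thinned to the lowest total, which left 5244 genes tested, 2787 genes were called in TAM against BMDM_T (4426 at full depth) and 2731 in TAM against BMDM_H (4230). Beyond those values, the calls on Slc2a1 and Slc16a3 in BMDM_T against BMDM_H and on Slc2a1, Hk2, Tpi1 and Ldha in TAM against BMDM_T held in each alternative run, while those on Gapdh did not hold without TAM replicate 3 or with limma-voom (1.77, adjusted p = 0.0923, against BMDM_T). DESeq2 gave Gapdh no adjusted p. With the replicate number as a block, where pairing was not met, Slc16a3 was called lower in TAM against BMDM_T (-0.45, adjusted p = 0.0294), and the block changed no call on another member outside BMDM_T against BMDM_H. Total counts as the only scaling moved the median of all genes in TAM against BMDM_T from 0.03 to 0.18. Where a cause is not named, the cause was not tested. Slc2a1 had 15 to 86 counts and Gapdh 2 to 18 counts per marrow library, so their counting error is large.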
